A study of Mus musculus with 3 samples.

Results

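Cluster 9 of the deposited single-cell retina data held 405 of 15242 cells, and was marked by Slc6a9, Prdm13, Ebf3, Nhlh2 and Ppp1r17, genes of small glycinergic and of non-GABAergic, non-glycinergic amacrine cells. Its members were chosen by the cluster number that the authors gave each cell in their cell table, with no further filter. The cells came from the retinas of 3 groups of mice aged 8 weeks and kept in darkness throughout life. WT mice were C57BL/6J on base chow, and the pool of 4 mice held 2 females. The rd10-vehicle mice were females on the same chow. The rd10-TMB mice were females that received tamsulosin (a blocker of alpha-1 adrenergic receptors), metoprolol (a blocker of beta-1 adrenergic receptors) and bromocriptine (an agonist of D2-like dopamine receptors) in the chow. The rd10 mutation lies in Pde6b, the rod phosphodiesterase gene, is present in all cells of both rd10 groups, and leads to loss of rods, and the labels name the same strain for all 3 groups.

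A single pooled droplet library was made for each group, so no value below has a replicate and no test of a group difference was made. Intervals are exact 95% intervals for counting (Clopper-Pearson for shares of cells, Poisson for summed counts, conditional binomial for ratios) and cover counting error only. WT and rd10 libraries also differed in the sex of the mice: 56 of 295 WT cells of cluster 9 had an Xist transcript and no Y-linked one, 129 had a Y-linked transcript and no Xist, and the rest could not be placed. All 62 rd10-vehicle and 46 of 48 rd10-TMB cells had Xist and no Y-linked transcript. Genotype and sex can therefore be separated only by keeping the 56 WT cells with Xist, and values with those cells alone are given where they moved a result.

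Amacrine cells are the inhibitory interneurons of the inner retina. They receive input from bipolar cells and act on bipolar terminals, ganglion cells and other amacrine cells. Most of them use either GABA, which is made by the decarboxylases Gad1 and Gad2, or glycine, which is gathered by the transporter Slc6a9 (GlyT1) at the plasma membrane, and both transmitters are loaded into vesicles by Slc32a1. A further group, named nGnG, lacks the usual markers of both and carries the basic helix-loop-helix factors Neurod2 and Neurod6 and the phosphatase inhibitor Ppp1r17. Prdm13, a zinc finger factor, and Ebf3, an early B-cell factor, act in the specification of amacrine subtypes, and Nhlh2 is a neuronal basic helix-loop-helix factor.

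The promoters of Prdm13 and Nhlh2 are shown because these factors are among the 5 markers of cluster 9. Prdm13 transcripts were scarce in all other clusters, and Nhlh2 was also found in cluster 5, in 87 of 461 WT cells. Both come from the RefSeq annotation of GRCm38.p6 and lie before the annotated start, the Nhlh2 sequence without the bases nearest to the start, where another annotated transcript lies. Capitals mark a match to a searched motif.
Prdm13, chr4:21685964-21686213, minus strand: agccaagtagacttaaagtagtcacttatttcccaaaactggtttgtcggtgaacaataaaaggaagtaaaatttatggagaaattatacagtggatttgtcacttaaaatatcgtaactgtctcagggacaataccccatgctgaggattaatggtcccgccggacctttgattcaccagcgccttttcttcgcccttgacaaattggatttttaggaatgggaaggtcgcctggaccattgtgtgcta
Nhlh2, chr3:102009895-102010074, plus strand: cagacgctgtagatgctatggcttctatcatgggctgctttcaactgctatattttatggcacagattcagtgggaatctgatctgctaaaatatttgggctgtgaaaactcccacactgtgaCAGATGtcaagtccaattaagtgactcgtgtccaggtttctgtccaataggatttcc
Short motifs were searched on both strands of the 250 bases before each start: CAGATG and CAGCTG, E-boxes bound by basic helix-loop-helix factors, and the palindrome of early B-cell factors, TCCC and GGGA parted by any 2 bases. Among 32851 promoters of the same table, 14.4% held CAGATG, 13% held CAGCTG and 0.779% held the palindrome. The Prdm13 window held none of them, and the Nhlh2 window held 1 CAGATG. Of the other markers, 1 of 3 promoter entries of Slc6a9 held a CAGATG, the entry of Ebf3 held none, and Ppp1r17 had no entry. These matches describe the letters of the windows and say nothing of binding.

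Cluster 9 cells made up a smaller part of both rd10 libraries than of the WT library. They were 295 of 4478 WT cells (6.59%, interval 5.88 to 7.35%), 62 of the 5952 cells of rd10-vehicle (1.04%, 0.80 to 1.33%) and 48 of the 4812 of rd10-TMB (0.998%, 0.736 to 1.32%). The share was 6.32-fold lower in rd10-vehicle than in WT (4.80- to 8.46-fold) and 6.60-fold lower in rd10-TMB than in WT (4.86- to 9.16-fold), and both ratios use the same WT library. Between the rd10 libraries the ratio was 0.958 (0.643 to 1.42), an interval that spans no difference. Shares of dissociated cells depend on every other cell type in the library as well. Cluster 0, which carries Muller glia genes, made up 530 WT, 2492 rd10-vehicle and 1748 rd10-TMB cells. Outside cluster 0 the share of cluster 9 was 7.47%, 1.79% and 1.57%. The WT share also moved with sex. Among cells with Xist and no Y-linked transcript, cluster 9 held 56 of 1750 in WT, 62 of 5633 in rd10-vehicle and 46 of 4416 in rd10-TMB. The direction was the same and the gap to WT was smaller than among all cells. Such cells were 18.98% of WT cluster 9 and 39.08% of all WT cells, and the folds above are for all cells.

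Cluster 5, the larger amacrine cluster, which carries Gad1 and Gad2, was lower still in the rd10 libraries. It held 461, 43 and 35 cells, or 10.3%, 0.722% and 0.727% of the libraries, 14.2-fold lower in both rd10 libraries than in WT. Cluster 9 was accordingly 39.0% of the cells of clusters 5 and 9 in WT (35.5 to 42.6%), and 59.0% (49.0 to 68.5%) and 57.8% (46.5 to 68.6%) of them in the vehicle and TMB groups of rd10. The gap between WT and rd10-TMB moved with the cells kept: at a mitochondrial share of 10% or less the values were 46.1%, 64.5% and 56.5%, and among cells with at least 1000 genes 37.4%, 62.7% and 53.1%. Among cells with Xist and no Y-linked transcript, cluster 5 held 83 of 1750 in WT, 43 of 5633 in rd10-vehicle and 33 of 4416 in rd10-TMB. For cluster 5 too, the gap to WT was smaller than among all cells.

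**Figure D1:**
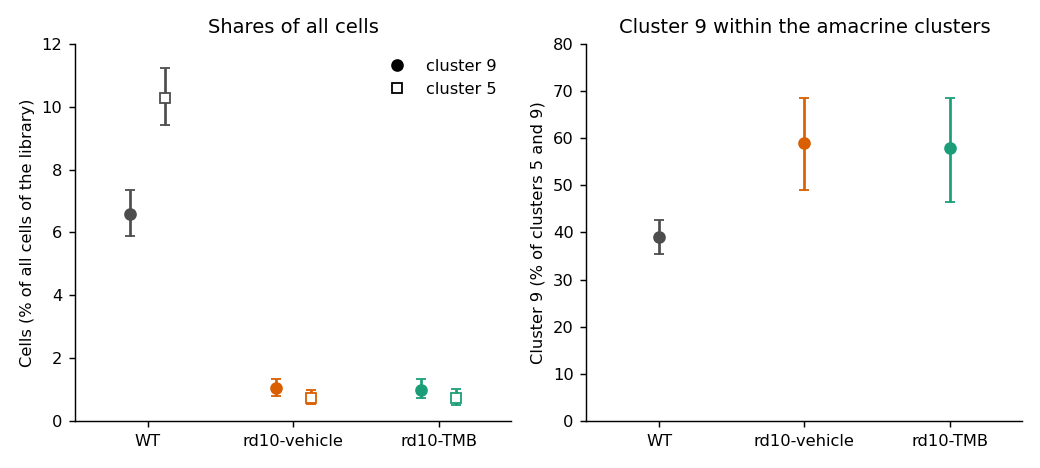
Share of cells in each library, in percent, with exact 95% intervals for counting. The left panel gives cluster 9 (filled circles) and cluster 5 (open squares) as a share of all cells, and the right panel gives cluster 9 as a share of clusters 5 and 9. Cluster 9 falls from 6.59% in WT to near 1% in both rd10 libraries, and cluster 5 from 10.3% to about 0.7%.

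The cells of cluster 9 were of similar depth in WT and rd10-vehicle and shallower in rd10-TMB. A cell held a median of 3302 UMIs (unique molecular identifiers, 1 per captured transcript) in WT, 3341.5 in rd10-vehicle and, in the rd10-TMB library, 2340.5. Values given as a set of 3, here and below, are in the order WT, rd10-vehicle, rd10-TMB. The summed depth was 971163, 188300 and 153778 UMIs. The median mitochondrial share was 4.26%, 4.12% and 3.94%. Of the barcodes found in more than 1 library, 25 in all, 1 belonged to a cell of cluster 9. Gene levels below are UMIs summed over the cells of cluster 9 in a library and given as counts per 1000000 UMIs (CPM). In these sums a count of 3, the limit that a count of 0 allows, stands for 3.09, 15.9 and 19.5 CPM, so low genes could be seen less well in the rd10 libraries.

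The spread of the markers over the clusters is given as a description. The authors built the clusters from the same transcripts, so finding the markers in cluster 9 is no test of what its cells are. At least 2 of the 5 markers were seen in 193 of 295 cells (65.4%), 50 of 62 cells (80.6%) and 32 of 48 cells (66.7%) of cluster 9, against 4.12%, 4.65% and 0% of the cells of cluster 5 and at most 1.91% of the cells outside both clusters. No marker at all was seen in 33, 2 and 7 cells of cluster 9. Prdm13 stood at 155 CPM over all cells of cluster 9, at 5.75 CPM in cluster 5 and at or below 1.31 CPM in every other cluster. Slc6a9 was less exclusive: pooled over the 3 libraries it stood at 851 CPM in cluster 9 and 407 CPM in cluster 10. The 2 clusters were not apart in the same way in each library, since WT had 659 Slc6a9 UMIs in 295 cells of cluster 9 and 720 in 239 cells of cluster 10, rd10-vehicle 252 in 62 cells and 37 in 107, and rd10-TMB 206 in 48 cells and 138 in 123. Ebf3 stood at 318 CPM in cluster 9 and also at 202 CPM in the small cluster 16, which held 43 cells.

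**Figure D2:**
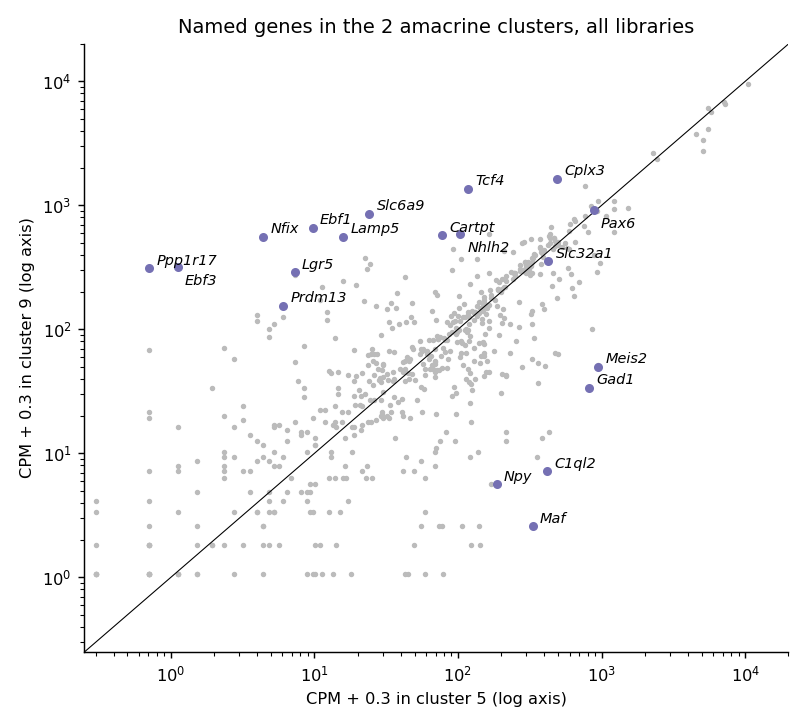
Level of each named gene in cluster 9 (vertical axis) against cluster 5 (horizontal axis), in CPM over all 3 libraries with 0.3 CPM added, on log axes. Slc6a9, Prdm13, Ebf3 and Ppp1r17 lie far above the line of equal levels, and Gad1, Npy and other genes of cluster 5 lie below it.

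Against cluster 5, the cells of cluster 9 carried a distinct set of subtype genes. These ratios describe clusters that the authors built from the same transcripts and are no test. Among 10137 genes compared, 588 (5.8%) were at least 2-fold higher in cluster 9 with an interval that left out no change, and 637 (6.28%) were lower. The log2 ratio over cluster 5 was 8.57 for Ppp1r17, 8.02 for Ebf3, 6.06 for its relative Ebf1, 5.14 for Slc6a9, 4.66 for Prdm13 and 2.50 for Nhlh2. The nuclear factors Nfix (6.94) and Nfib (5.23), which are shared with AII amacrine cells and glia, the Wnt co-receptor Lgr5 (5.29) and the membrane protein Lamp5 (5.13) were also among the highest. All 8 genes of the list for nGnG and related glycinergic subtypes that could be compared were higher than in cluster 5, as were 7 of 10 AII genes. Gjd2, which encodes the gap junction protein of AII cells, was not among these 7 (log2 0.16, with 35 UMIs in 405 cells).

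The GABA genes went the other way. Gad1 stood at 33.5 CPM in cluster 9 and 821 CPM in cluster 5 (log2 -4.58) and Gad2 at 64.0 and 475 CPM (-2.88). Of the 6 GABAergic genes, 4 were lower than in cluster 5 and none was higher, beside 6.28% lower and 5.8% higher of all genes. Slc32a1, which loads both transmitters, stood at 353 CPM in cluster 9 and 426 CPM in cluster 5, a ratio inside the 2-fold limit (log2 -0.27). Among the lowest genes of cluster 9 were peptide genes of other amacrine subtypes: Vip (log2 -7.28), Tac2 (-5.69), Npy (-4.93) and Tac1 (-4.93). No starburst or dopaminergic marker reached a level that could be compared between libraries.

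Among the 5 markers, Ppp1r17 separated the WT cells of cluster 9 from the rd10 cells. It was counted 408 times in WT, once in rd10-vehicle and not at all in rd10-TMB, or at 420 CPM (380 to 463), 5.31 CPM (0.135 to 29.6) and 0 CPM. The log2 ratio of rd10-vehicle over WT was -5.31 (-11.6 to -3.82), and in rd10-TMB the level was at least 21.5-fold lower than in WT. After each cell was thinned to 1000 UMIs the log2 ratio of rd10-vehicle was -3.27, with 1 cell of 53 behind it, and no Ppp1r17 UMI was left in the 40 rd10-TMB cells, so no ratio is given there. In the genome Ppp1r17 lies on chromosome 6 (56017497 to 56032689 in GRCm38), and the tag counts do not show which of its exons were read.

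The other 4 markers were not lower in the rd10 cells. Slc6a9 was counted 659, 252 and 206 times in WT, rd10-vehicle and rd10-TMB, which is 679 CPM (628 to 732), 1338 CPM (1178 to 1514) and 1340 CPM (1163 to 1536). Its log2 ratio over WT was 0.98 (0.77 to 1.19) in rd10-vehicle and 0.99 (0.75 to 1.21) in rd10-TMB, which left out no change but stayed just under 2-fold. Against the 56 WT cells with Xist alone the ratios were 0.52 and 0.52, so the size of this difference moved with the choice of WT cells. Thinning each cell to 1000 UMIs gave 1.09 in rd10-vehicle and 1.22 in rd10-TMB, both past 2-fold, and the mean over cells gave 1.19 and 0.88.

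Ebf3 was counted 265, 84 and 69 times, or at 273, 446 and 449 CPM, with log2 ratios over WT of 0.72 (0.34 to 1.07) and 0.73 (0.31 to 1.11). For Nhlh2 the counts were 516, 132 and 126, or 531, 701 and 819 CPM, and the ratios 0.41 (0.11 to 0.68) and 0.63 (0.33 to 0.91). Both ratios left out no change and were inside the 2-fold limit. After thinning each cell to 1000 UMIs the rd10-vehicle ratios were 1.12 for Ebf3, past 2-fold, and 0.94 for Nhlh2. Prdm13, with 140, 35 and 28 counts (144, 186 and 182 CPM), did not differ beyond its counting interval (log2 0.40, -0.21 to 0.91, and 0.38, -0.30 to 0.93).

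**Figure D3:**
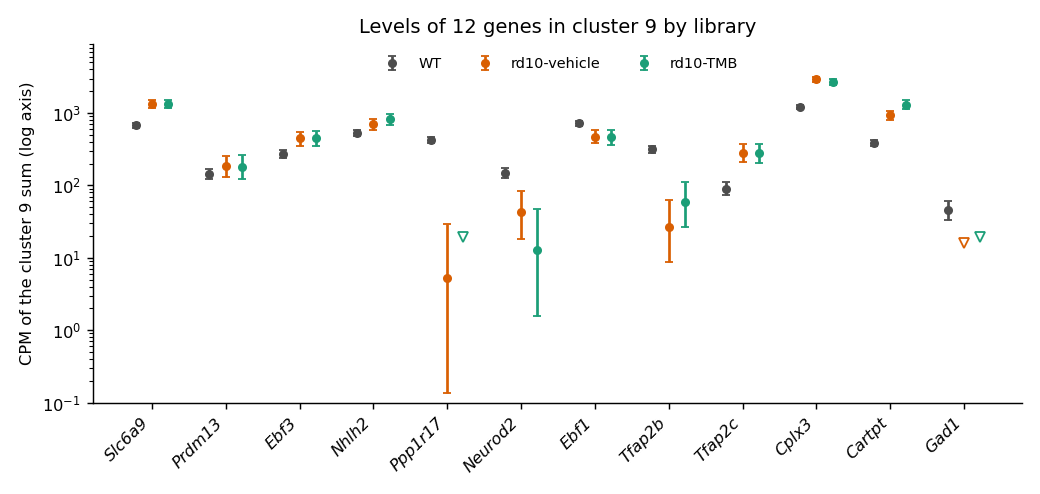
Level of 12 genes in the cells of cluster 9 in each library, in CPM on a log axis, with exact 95% Poisson intervals. Open triangles stand at the CPM of 3 counts where a gene had 0 UMIs. Ppp1r17 is at 420 CPM in WT and at 1 or 0 UMIs in the rd10 libraries, and Slc6a9 is at 679, 1338 and 1340 CPM.

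Cell by cell, Ppp1r17 marked a minority of the WT cells of cluster 9. It was found in 67 of 295 WT cells (22.7%), with up to 20 UMIs in a cell and 2 or more in 54 cells, in 1 of 62 rd10-vehicle cells with 1 UMI, and in 0 of 48 rd10-TMB cells, a limit of 6.25% at 3 cells, or 7.40% at the exact bound, on cells in which it is seen. In cluster 0, whose glial cells should lack the gene and which was deeper (median 6300, 8593.5 and 9454.5 UMIs), 0.566%, 0.0401% and 0.0572% of the cells had a Ppp1r17 UMI. The share in WT cluster 9 was thus far above that in cells that should lack the gene, and those in the rd10 libraries rested on 1 and 0 cells. Thinned to 1000 UMIs a cell, it was 17.4%, 1.89% and 0%, where the 0 allows up to 7.5%.

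Slc6a9 was found in more cells: 66.1%, 88.7% and 77.1%, and 44.1%, 73.6% and 82.5% after thinning. Thinning leaves out the 25, 9 and 8 cells under 1000 UMIs, so the rd10-TMB share is 37 of 48 cells before and 33 of 40 after, and its 2 values are not a rise. In cluster 0 the unthinned shares were 1.70%, 1.12% and 1.72%. Of the WT cells, 42 held both transcripts, 25 held Ppp1r17 without Slc6a9, 153 held Slc6a9 without Ppp1r17 and 75 held neither. The cells with neither were shallow, with a median of 1430 UMIs against 3919 in those with Slc6a9 alone. In rd10-vehicle 55 of 62 cells and in rd10-TMB 37 of 48 cells held Slc6a9 without Ppp1r17, and no cell held both.

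**Figure D4:**
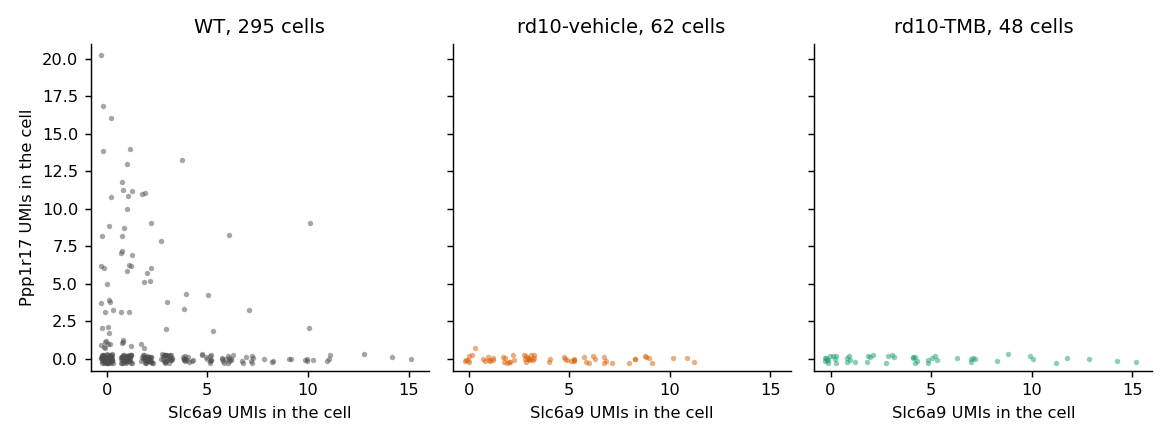
Slc6a9 UMIs (horizontal axis) against Ppp1r17 UMIs (vertical axis) in each cell of cluster 9, 1 panel per library, with a small random shift so that equal points can be seen. WT cells spread along both axes, up to 15 Slc6a9 and 20 Ppp1r17 UMIs, and the rd10 cells lie along the Slc6a9 axis except for 1 rd10-vehicle cell with 1 Ppp1r17 UMI.

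Cells with and without Ppp1r17 both made up a smaller part of the rd10 libraries. As a share of all cells of the library, cells with Ppp1r17 were 89.0-fold lower in rd10-vehicle than in WT (15.4- to 3569-fold, from 1 cell) and, set against the limit of 3 counts, at least 24-fold lower in rd10-TMB (18.99-fold at the exact 95% bound). Cells with Slc6a9 and without Ppp1r17 were 3.42%, 0.924% and 0.769% of the libraries, 3.70-fold (2.70- to 5.13-fold) and 4.44-fold (3.09- to 6.55-fold) lower. All cells of cluster 9 without Ppp1r17 were 4.97-fold (3.73- to 6.70-fold) and 5.10-fold (3.73- to 7.12-fold) lower. Because a transcript can be missed in a shallow cell, these counts are of cells with a UMI. A lower number of such cells and a lower level per cell cannot be told apart for Ppp1r17 itself.

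Within WT, the 67 cells with Ppp1r17 and the 153 with Slc6a9 alone had different transcripts, given here as a description of 1 library. Where both kinds of cell together held 50 or more UMIs of a gene, those among the 15 highest in the Ppp1r17 cells included Igfbp5, an insulin-like growth factor binding protein (56 against 4 UMIs, log2 4.60), the zinc finger factor Tshz2 (74 against 10, 3.86), Gprin3 (46 against 6, 3.84), Car3, a carbonic anhydrase (54 against 18, 2.62), and the retinoic acid binding protein Crabp1 (174 against 70, 2.39). Among the 15 highest in the Slc6a9 cells were the AP-2 factor Tfap2c (82 against 1, log2 -4.29), the growth factor Igf1 (69 against 1, -4.04), Nefl, the light neurofilament (60 against 1, -3.84), Lmo4, a LIM-only protein (176 against 6, -3.57), Gria3, an AMPA receptor subunit (110 against 4, -3.38), and the peptide gene Cartpt (349 against 20, -2.97). Each ratio with 1 count in a group has a wide interval, such as -10.6 to -2.75 for Tfap2c.

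For the genes set apart between these WT cells, the levels in the rd10 cells lay closer to those of the WT Slc6a9 cells. Most rd10 cells, 55 of 62 and 37 of 48, also held Slc6a9 without Ppp1r17. The likeness therefore follows in part from how cells and genes were chosen, and is a description only. The 15 genes highest in WT Ppp1r17 cells, chosen from these WT values, summed to 4941 CPM in those cells, 927 CPM in the WT Slc6a9 cells, and 494 and 455 CPM in the vehicle and TMB cells of rd10. The 15 highest in the WT Slc6a9 cells summed to 391 and 3734 CPM in these WT cells, and to 6033 and 5579 CPM in the rd10 cells. Igfbp5 was counted once and not at all in the rd10 cells, and Gprin3 in neither rd10 library.

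Over the whole cluster, 3687 genes could be compared between rd10-vehicle and WT, of which 116 (3.15%) were called higher and 88 (2.39%) called lower, meaning at least 2-fold with an interval that left out no change. For rd10-TMB and WT, 3096 genes could be compared, of which 107 (3.46%) were called higher and 60 (1.94%) lower. A gene could be compared where about 10 UMIs would be met in the smaller sum. The median log2 ratio of all compared genes was 0.09 and 0.10. Both comparisons use the same WT cells, so their values are given side by side and their likeness is no result. When only the 56 WT cells with Xist were used, 104 and 102 genes were called higher and lower in rd10-vehicle and 84 and 97 in rd10-TMB. Of the calls made with all WT cells, 44 of 116 and 43 of 88 were also called there for rd10-vehicle, and 42 of 107 and 39 of 60 for rd10-TMB, with fewer genes deep enough to be compared.

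Several transcription factors of amacrine subtypes were among those called lower. Tfap2b, an AP-2 factor of amacrine cells, was counted 305, 5 and 9 times in WT, rd10-vehicle and rd10-TMB (314, 26.6 and 58.5 CPM), with log2 ratios over WT of -3.31 (-5.20 to -2.33) and -2.28 (-3.57 to -1.48). Neurod2 was counted 144, 8 and 2 times (148, 42.5 and 13.0 CPM), with ratios of -1.64 (-3.04 to -0.79) and -2.94 (-6.57 to -1.63). Neurod6, its partner in nGnG cells, was counted 28, 0 and 0 times, too few to be compared. Bcl11a, a zinc finger factor, was counted 117, 1 and 0 times and was called lower in rd10-vehicle (log2 -3.52, -9.82 to -1.997).

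Other factors differed in both directions. Tfap2c, a relative of Tfap2b, was counted 88, 53 and 43 times (90.6, 281 and 280 CPM) and was called higher in both, with ratios of 1.65 (1.11 to 2.14) and 1.64 (1.06 to 2.17). Lmo4 was counted 197, 108 and 69 times (203, 574 and 449 CPM), with ratios of 1.51 (1.15 to 1.84) and 1.16 (0.73 to 1.55). Nr2f2, a nuclear receptor, was called higher in rd10-TMB (1.24, 0.82 to 1.62) and lay under 2-fold in rd10-vehicle (0.96). Ebf1, counted 701, 89 and 71 times, was somewhat lower and inside the 2-fold limit (-0.60 and -0.63). Of the listed amacrine transcription factors that could be compared, 2 of 25 were called higher and 3 lower in rd10-vehicle, and 4 of 24 higher and 2 lower in rd10-TMB, beside 3.15% and 2.39% of all genes in the one pair and 3.46% and 1.94% in the other. Tfap2b, Neurod2 and Bcl11a reached the minimum for a comparison through their WT level, so these counts are a description only.

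The lowest ratios after Ppp1r17 were in genes of several kinds. Trhde, a peptidase, was counted 113 times in WT and in neither rd10 library, at least 7.3-fold lower in rd10-vehicle. Klc3, a kinesin light chain, was counted 109, 0 and 3 times, at least 7.04-fold lower in rd10-vehicle and at a log2 ratio of -2.12 in rd10-TMB. The noncoding C130073E24Rik was counted 104, 0 and 1 times, at least 6.72-fold lower in rd10-vehicle. These 3 transcripts were held by 53, 64 and 48 of the WT cells.

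Pcdh17, a protocadherin, was counted 136 times in WT, in 39 cells, and in neither rd10 library, at least 8.79-fold lower in rd10-vehicle and at least 7.18-fold lower in rd10-TMB. Pcp4, a calmodulin regulator, was counted 777, 8 and 11 times (800, 42.5 and 71.5 CPM), with ratios of -4.07 (-5.45 to -3.25) and -3.36 (-4.49 to -2.64). All 11 counts in rd10-TMB came from 1 cell, and 1 WT cell held 83, which shows how uneven this gene was. With only the 56 WT cells with Xist the ratios were -2.67 and -1.96, and in rd10-vehicle the value ran from -6.16 in cells with at least 1000 genes to -2.24 after thinning.

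Marcks, a substrate of protein kinase C at the membrane, was counted 241, 2 and 1 times (248, 10.6 and 6.50 CPM), with ratios of -3.97 (-7.60 to -2.68) and -4.26 (-10.6 to -2.76). Epha5, an ephrin receptor of neuronal wiring, was counted 151, 2 and 2 times, with ratios of -3.30 and -3.00. The noncoding transcript A930001A20Rik, whose profile over 16 clusters was the most like that of Prdm13 (Pearson r = 0.987, a description), was counted 170, 1 and 1 times, with ratios of -4.05 and -3.76, and of -2.67 and -2.37 against the WT cells with Xist. This transcript was held by few cells, 31 of 295 in WT.

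Among glutamate receptors and potassium channels the calls were few and all of them lower. Grin2b, an NMDA receptor subunit, was counted 128, 1 and 0 times, with a log2 ratio of -3.65 (-9.95 to -2.13) in rd10-vehicle and a level at least 6.76-fold lower in rd10-TMB. Gria1, an AMPA receptor subunit, was counted 107, 0 and 3 times and was at least 6.92-fold lower in rd10-vehicle. The A-type potassium channel gene Kcnd3 was counted 135, 3 and 4 times, with ratios of -2.72 (-5.42 to -1.55) and -2.11 (-4.31 to -1.03), and Kcnip4, which encodes a partner of that channel, 199, 4 and 10 times, with ratios of -2.96 and -1.53. Over the lists, 2 of 12 glutamate receptor genes and 4 of 20 potassium, sodium and HCN channel genes were called lower in rd10-vehicle, 2 of 10 and 3 of 16 in rd10-TMB, and none was called higher, beside the 2.39% and 1.94% of all genes called lower. These counts are a description only, since Grin2b, Gria1, Kcnd3 and Kcnip4 reached the minimum for a comparison through their WT level. The medians of these lists were 0.10 and -0.13 in rd10-vehicle and -0.07 and 0.07 in rd10-TMB over the members that could be compared. The other members of the 29 glutamate receptor and 42 channel genes were too low to compare. Gabrg3, a GABA-A receptor subunit, went the other way: it was counted 104, 51 and 38 times (107, 271 and 247 CPM), was called higher with ratios of 1.35 (0.83 to 1.84) and 1.23 (0.63 to 1.75), and was the only call among 7 and 6 glycine and GABA receptor genes. Of all genes 3.15% and 3.46% were called higher, and a count of 1 gene is given as a description.

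The GABA genes, low in cluster 9 to begin with, were counted few times in the rd10 cells. Gad1 was counted 44, 0 and 0 times and Gad2 75, 6 and 3 times, and only Gad2 in rd10-vehicle could be compared and was called lower (-1.07, -2.77 to -0.09). Slc32a1 was counted 318, 83 and 62 times (327, 441 and 403 CPM), with ratios of 0.44 (0.06 to 0.78) and 0.32 (-0.12 to 0.70). Horizontal cells carry GABA genes too, and their markers summed to 445, 112 and 202 CPM within cluster 9, and their part in these values was not tested.

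Genes called higher in the rd10 cells included secreted factors, neurofilaments and a synaptic protein. Cplx3, the complexin of ribbon synapses and some amacrine cells, was counted 1171, 552 and 418 times (1206, 2931 and 2718 CPM), with ratios of 1.28 (1.13 to 1.43) and 1.18 (1.01 to 1.33). Cartpt was counted 378, 176 and 201 times (389, 935 and 1307 CPM), with ratios of 1.27 (0.998 to 1.526) and 1.75 (1.494 to 1.998). Ndnf, a secreted neurotrophic protein, was counted 59, 56 and 40 times (60.8, 297 and 260 CPM), with ratios of 2.29 (1.74 to 2.84) and 2.11 (1.48 to 2.70). Cartpt was seen in 74 of 295, 33 of 62 and 30 of 48 cells and Ndnf in 39, 28 and 23, so neither rested on a few cells.

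Igf1 was counted 73, 72 and 35 times (75.2, 382 and 228 CPM), in 34, 33 and 21 cells, with ratios of 2.35 (1.86 to 2.84) and 1.62 (0.97 to 2.20). In rd10-vehicle the ratio was 1.60 with only the 56 WT cells with Xist. Esr1, the estrogen receptor alpha, was counted 40, 27 and 22 times (41.2, 143 and 143 CPM), with ratios of 1.82 (1.04 to 2.54) and 1.83 (0.98 to 2.58), and of 1.004 and 1.012 with those WT cells. After thinning, Esr1 had a ratio of 0.26 in rd10-vehicle, inside the 2-fold limit. The WT cells with Xist also held a different mix of cells: 7 of the 67 Ppp1r17 cells and 34 of the 153 Slc6a9 cells were among them. The part of sex and of this mix in the shift was not tested.

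Nefl was counted 65, 59 and 27 times (66.9, 313 and 176 CPM), with ratios of 2.23 (1.69 to 2.76) and 1.42 (0.69 to 2.06), and Nefm, the medium neurofilament, 15, 22 and 14 times, with a ratio of 2.89 (1.91 to 3.97) in rd10-vehicle, and of 1.86 against the WT cells with Xist. Thy1, a surface protein of retinal ganglion cells, was counted 108, 43 and 43 times, with ratios of 1.06 (0.49 to 1.56) and 1.35 (0.79 to 1.85). All 3 are on the list of ganglion cell markers, and Nefm, with 15 WT counts, could be compared only through its level in rd10-vehicle, so their number is not read as a result. The 11 ganglion cell markers, of which 9 were detected, summed to 222, 664 and 611 CPM in cluster 9. In the cells outside cluster 9 Nefl stood at 106, 4.59 and 2.51 CPM, and the part of other cells or free RNA in its level in cluster 9 was not tested.

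Immediate-early genes, which neurons and glia switch on within minutes of stimulation or dissociation, gave calls in both directions. Egr1 was counted 133, 53 and 48 times (137, 281 and 312 CPM; ratios 1.05 and 1.21), Junb 108, 49 and 35 times (111, 260 and 228 CPM; 1.24 and 1.06) and Ier2 68, 30 and 26 times (70.0, 159 and 169 CPM; 1.21 and 1.31). Fos stood at 263, 515 and 631 CPM and was called higher in rd10-TMB only (1.27, against 0.98 in rd10-vehicle, with a ratio of 0.29 between the rd10 libraries, inside the 2-fold limit). Of 8 immediate-early genes compared with WT, 3 were called higher and 1, Fosb, lower in rd10-vehicle (-1.01), while for rd10-TMB 4 of 8 were called higher and none lower, beside 3.15%, 2.39%, 3.46% and 1.94% of all genes. In the cells with Slc6a9 and no Ppp1r17, Fosb was at -1.18 in rd10-vehicle. In the cells outside cluster 9 the 16 immediate-early genes summed to 8483, 25080 and 23030 CPM, and in cluster 9 to 1327, 1859 and 2302 CPM, so their sums were higher in the rd10 libraries at large, and the part of free RNA in cluster 9 was not tested. Likewise Apoe, a glial gene, was called higher in cluster 9 (1.26 and 1.05), and the 10 Muller glia markers summed to 552, 1025 and 917 CPM in cluster 9 and to 8558, 30030 and 27470 CPM outside cluster 9.

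**Figure D5:**
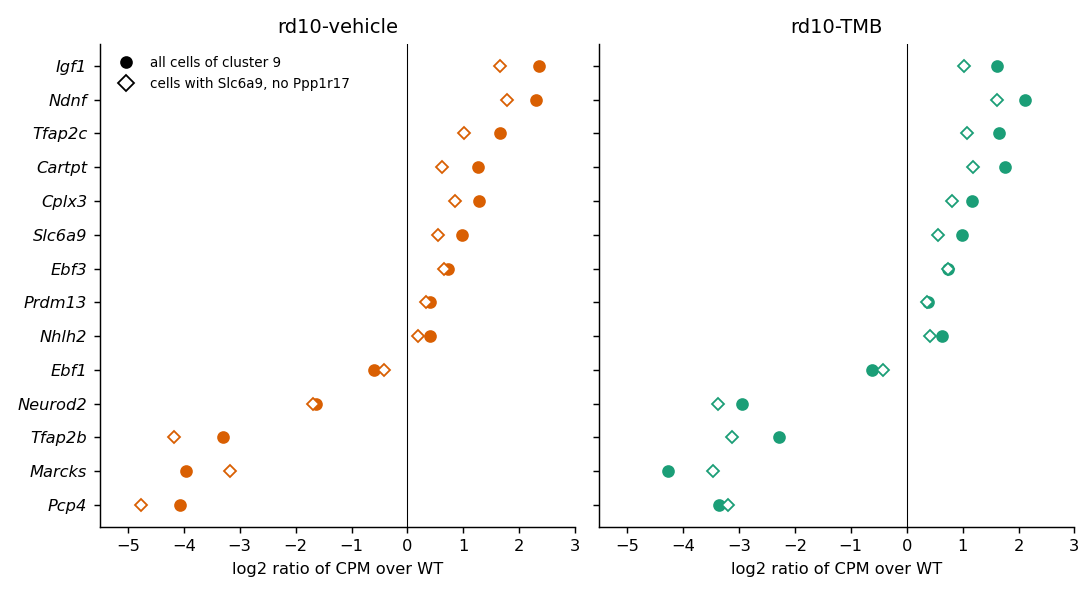
Log2 ratio over WT of 14 genes in cluster 9, for rd10-vehicle and rd10-TMB, drawn without intervals. Filled symbols use all cells of cluster 9, and open diamonds use the cells with Slc6a9 and no Ppp1r17. Tfap2b, Pcp4 and Marcks stay below -2 with either choice of cells. The open diamonds come from cells chosen for a Slc6a9 UMI, so the ratio of Slc6a9 itself is not read there.

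Because the rd10 cells held almost no Ppp1r17, the comparison was repeated in the cells with Slc6a9 and without Ppp1r17 of each library, 153, 55 and 37 cells. This choice of cells was made after the data were seen. In rd10-vehicle, of 3474 genes compared, 85 (2.45%) were called higher and 52 (1.5%) lower, and in rd10-TMB, of 2880, 67 (2.33%) were called higher and 44 (1.53%) lower. Of the genes called in the whole cluster, 66 of 116 higher and 40 of 88 lower in rd10-vehicle, and 56 of 107 and 32 of 60 in rd10-TMB, were called here too.

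Of the 88 genes called lower in rd10-vehicle 55 could be compared in the Slc6a9 cells, and of the 60 in rd10-TMB 46. Bcl11a, Epha5, Grin2b, Gria1 and Gad2 were too low in these cells to be compared. Tfap2b was counted 172, 2 and 4 times in them (log2 -4.17 and -3.13), Pcp4 436, 4 and 11 times (-4.77 and -3.20), Marcks 86, 2 and 1 times (-3.18 and -3.46), A930001A20Rik 84, 0 and 1 times and Pcdh17 96, 0 and 0 times. Neurod2 was counted 81, 7 and 1 times (-1.68 and -3.37). These 6 transcripts were present in WT cells that showed Slc6a9 and no Ppp1r17, and were scarce in the rd10 cells of the same description. They were picked from genes already called lower in the whole cluster, which includes these cells. They also reached the minimum through their WT level, so their low counts here are a description and no separate support.

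Several of the higher genes were closer to level in this choice of cells, and others were not. Slc6a9 is not read here, since the cells were chosen for it. Cplx3 had ratios of 0.86 and 0.81, Lmo4 0.92 and 0.61, and Cartpt 0.61 and 1.18. Tfap2c had 1.002 and 1.070, Ndnf 1.78 and 1.61, Igf1 1.66 and 1.03 and Esr1 1.23 and 1.42, and these 4 genes were still called higher in both. Egr1 (1.195 and 1.134), Junb (1.29 and 1.12) and Ier2 (1.14 and 1.14) were as well, and Nefm had 2.74 in rd10-vehicle. Prdm13 (0.33 and 0.37), Ebf3 (0.65 and 0.74) and Nhlh2 (0.19 and 0.41) stayed inside the 2-fold limit.

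Several functional groups had no call or 1 call. No gene of the AII list was called among 8 compared in each pair with WT: Prox1, a homeobox factor of AII cells, had ratios of 0.60 and 0.52, and Dab1, an adaptor of reelin signalling, of 0.53 and 0.54. None of 16 and 14 conventional synapse genes and none of 12 and 11 calcium channel and buffer genes was called. All genes were called at 3.15% (higher) and 2.39% (lower) in rd10-vehicle and at 3.46% and 1.94% in rd10-TMB, so with this few genes an absence of calls is near the background and is not read as a result. Of 74 nuclear respiratory chain genes none was called in rd10-vehicle (median log2 0.13) and 1 was called higher in rd10-TMB (0.18), and none of the 13 mitochondrially encoded genes was called. The receptors that tamsulosin, metoprolol and bromocriptine act on, listed with their relatives, were scarce: of 16 genes, 4 reached 20 UMIs in cluster 9, 1 could be compared, and it was not called.

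Few genes were called between the rd10-TMB and rd10-vehicle cells of cluster 9, whose sums came from only 48 and 62 cells. Of 3086 compared, 47 (1.52%) were called higher and 30 (0.972%) lower in rd10-TMB, with a median log2 ratio of -0.01. With the mean over cells 122 were called higher and 129 lower. Differences could be missed at this depth, so the low count is not read as likeness. The 4 markers that could be compared were level: Slc6a9 stood at 1338 and 1340 CPM (log2 0.00), Ebf3 at 446 and 449 CPM (0.01), Prdm13 at 186 and 182 CPM (-0.02) and Nhlh2 at 701 and 819 CPM (0.23), and Ppp1r17 was too low in both to be compared.

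The 10 highest ratios of rd10-TMB over rd10-vehicle were uneven in the cells behind them. Slc25a23, a mitochondrial carrier, was counted 19 and 3 times in rd10-TMB and rd10-vehicle (log2 2.61), in 14 and 3 cells, with at most 3 UMIs in a cell. Gsg1 was counted 36 times in rd10-TMB and 0 times in rd10-vehicle, at least 14.7-fold higher, but the 36 counts came from 3 cells, and 1 of these held 20. Pcp2, a gene of rod and cone bipolar cells, was counted 23 and 4 times (log2 2.56), in 9 and 3 cells, and 1 rd10-TMB cell held 15. The 13 rod markers, all of them detected in cluster 9, summed to 1832, 791 and 1977 CPM in cluster 9 and to 9245, 3945 and 5815 CPM in the cells outside cluster 9, so both moved the same way between the rd10 libraries, and the part of free RNA was not tested. Of those markers, 6 of 7 compared between the rd10 libraries were called higher in the TMB group, beside 1.52% of all genes, and 4 of 9 compared with WT were called lower in the vehicle group, beside 2.39%. A marker could reach the minimum for a comparison through the library where it was high, so these counts are a description.

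Among genes of neurons in general, Fosb was counted 7 times in rd10-vehicle and 23 in rd10-TMB (log2 1.88), Jun 18 and 35 times (1.21) and Scrt1, a neuronal zinc finger factor, 21 and 37 times (1.08), all called higher in rd10-TMB. Fosb in the cells outside cluster 9 stood at 1658 and 1593 CPM and did not differ in that direction. Called lower in rd10-TMB were Nr1d2, a clock repressor (32 and 9 counts, log2 -1.43, but -0.43 as a mean over cells), and Cacng4, an auxiliary subunit of AMPA receptors (29 and 9 counts, -1.29). Of the clock genes, 1 of 8 was called lower, and none of 13 conventional synapse genes and none of 14 potassium, sodium and HCN channel genes was called in either direction. Of the immediate-early genes, 2 of 9, Fosb and Jun, were called higher and none lower. Of all genes 1.52% were called higher and 0.972% lower, and with 1 or 2 genes behind them these counts are given as a description.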

How the data were processed

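Retinas were dissociated with papain and captured on a droplet platform, 1 pooled library per group. Per the labels 4 mice were pooled for each, and the study's methods give fewer for the rd10 groups. The authors aligned reads to mm10 with Cell Ranger 6.0.1, removed doublets before deposit, kept cells with at least 500 detected genes, and clustered them in Seurat 3.2.2 after correction over groups with Harmony. Values of the deposited matrix are natural logs of 1 plus the UMIs per 10000 of the cell. The UMI counts were recovered with the deposited total of each cell: 32620606 of 32620606 entries were whole within 0.001, and the sums of 15242 cells equalled the deposited totals. No cell filter or doublet caller was added.

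UMIs of cluster 9 were summed per library and scaled to CPM. Log2 ratios had a pseudocount of 1 UMI, a gene was compared where the mean level gave at least 10 UMIs in the smaller sum, and a call needed 2-fold and an exact 95% interval that left out no change. Cells are not replicates, so no p-value was computed. Python 3.11.15, numpy 2.4.6, scipy 1.17.1 and pandas 2.3.3 were used, and the code was tested on simulated counts. Named genes were the 5 markers, genes of 38 lists with at least 20 UMIs, the 20 highest and lowest ratios over cluster 5 and highest over other cells, the 10 highest and lowest per pair of libraries, and the 10 genes most like Prdm13; the genes set apart between WT cells with Ppp1r17 and Slc6a9 were chosen after the values were seen. The members and lists were chosen with earlier results of these data known. Items withheld from this text are not reported here. The rd10 point mutation cannot be read from tag counts. Coordinates are RefSeq positions on GRCm38. Alternatives covered scaling, pseudocount, cell filters, thinning to 1000 UMIs, the minimum count, the fold, the share's denominator and, for gene levels only, the sex of WT cells.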

Additional observations from a re-analysis of the deposited data

How the results depend on the processing

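The direction of the shares held under every alternative run for them. The sex of WT cells was not among these alternatives, and the counts of cells with Xist are given with the shares. With cells outside cluster 0 as the denominator they were 7.47% (WT), 1.79% (rd10-vehicle) and 1.57% (rd10-TMB). Among cells with at least 1000 genes the rd10-TMB share was 0.670%, and at a mitochondrial share of 10% or less cluster 9 was 46.1 per 100 cells of clusters 5 and 9 in WT, beside 64.5 in rd10-vehicle and 56.5 in rd10-TMB. Counts of calls moved with the rules. For rd10-vehicle over WT, higher and lower, they were 46 and 22 at a minimum of 20 UMIs, 314 and 369 with no minimum, 272 and 166 at 1.5-fold, and 67 and 14 after thinning to 1000 UMIs. For rd10-TMB over WT they were 38 and 14, 349 and 234, 217 and 123, and 35 and 11, and for rd10-TMB over rd10-vehicle 11 and 7, 167 and 94, 77 and 58, and 10 and 16. The mean over cells gave 177 higher for rd10-vehicle over WT, 183 higher and 117 lower for rd10-TMB over WT, and 122 and 129 for rd10-TMB over rd10-vehicle. WT cells with Xist gave 97 lower for rd10-TMB. Cells with Slc6a9 and no Ppp1r17, chosen after seeing the data, gave 52 lower for rd10-vehicle and 67 higher for rd10-TMB. Fewer genes entered after thinning and at 20 UMIs; otherwise the cause was not tested. Of 694 values of single genes, 644 stayed within their interval, 49 moved and 1 reversed: Socs7, rd10-TMB over rd10-vehicle, at -1.36 as reported and 0.41 after thinning. No paired analysis was possible because each group is 1 library.

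Depth limited the rd10 libraries most, where 3 counts stand for 15.9 and 19.5 CPM. Group, library, pool of mice and, for WT, sex cannot be told apart beyond the values given.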

Other observations

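Ppp1r17 was also found outside cluster 9. In cluster 10, which carried Slc6a9 at 407 CPM over the 3 libraries and no Prdm13 UMI, it was found in 53 of 239 cells (WT), 3 of 107 (rd10-vehicle) and 12 of 123 (rd10-TMB), with 85, 6 and 22 UMIs. In cluster 16 it was found in 9 of 37, 1 of 3 and 0 of 3 cells.

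The genes whose profile over 16 clusters was most like that of Prdm13, after A930001A20Rik, were Hs6st3 (Pearson r = 0.986), Cyp2s1 (0.986), Vmn2r-ps159 (0.980), Efcab1 (0.972), Crhr1 (0.969), Trim63 (0.968), Sertm1 (0.968), Six2 (0.965) and Gm47018 (0.962). Of these, Crhr1, the receptor of corticotropin-releasing hormone, had 44 UMIs in cluster 9 and Hs6st3, a heparan sulfate sulfotransferase, 26, and the other 7 had between 2 and 12, so their profiles rest on few counts. The clusters share libraries and depth.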
